A study of Homo sapiens with 9 samples.

Results

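The 10 genes described here are neighbours of ERBB2 on the long arm of chromosome 17: MED1, CDK12, STARD3, TCAP, PNMT, PGAP3, GRB7, ORMDL3, PSMD3 and MED24. They were chosen by symbol as neighbours of ERBB2, with earlier results of these data known, and all 10 were found among the 20812 genes of the deposited table. Another 8 table genes of the same stretch were not chosen. ERBB2 encodes HER2, a receptor tyrosine kinase that drives growth of a class of breast cancers in which its locus is present in many copies. The copied stretch of DNA, the 17q12-q21 amplicon, usually takes in genes on both sides of ERBB2, so neighbours can be copied with it, and the boundaries differ from tumour to tumour. DNA copy number was not analysed here, so which of the 10 lie within the amplified stretch of these cells cannot be told from the values below.

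The cells were SKBR3, an established human breast cancer line with an amplified ERBB2 gene. Every group was transfected with 10 nM siRNA using Lipofectamine RNAiMAX and treated for 48 h. Control cells received the ON-TARGETplus non-targeting siRNA of Horizon Discovery, and the others received 1 of 2 siRNAs against PVRL4 (siRNA 1 or siRNA 2) from Integrated DNA Technologies; supplier and target therefore both set the control apart. PVRL4 encodes nectin-4, a cell adhesion protein, and the series concerns its control by FOS family proteins. Each of the 3 groups had 3 libraries, made by amplifying 1 short amplicon per gene. The labels do not name separate cultures, and the spread that p-values rest on is that of these libraries, possibly technical.

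Values are RPM, the reads of a gene's amplicon scaled to the reads of its library. Libraries held 10017130 to 10707777 reads. A single read equalled 0.0934 to 0.0998 RPM, and 3 reads, taken as the floor of detection, lay at 0.280 to 0.299 RPM; floors cover counting error only. Because each gene is read at 1 amplicon, RPM is not divided by gene length, and since the efficiency of each amplicon is not known, levels of different genes are compared as descriptions without a test. The targeted PVRL4 had a mean of 9.81 RPM in control libraries, against 5.01 RPM (siRNA 1) and 2.96 RPM (siRNA 2), and every PVRL4 siRNA library lay below every control library (limma adjusted p = 0.0601 and 0.00224 against control). With the replicate number as a block, siRNA 1 also passed (limma adjusted p = 0.0132), as it did in DESeq2 (0.0151) and with a pseudocount of 5 (limma adjusted p = 0.0474). Of 10 markers of HER2-positive luminal breast cells, 9 averaged at least 1 RPM in each group, the exception being TFAP2B, and their summed level was 9310 to 11682 RPM per library. That sum was 9310 to 9886 RPM with siRNA 2 and 10693 to 11682 RPM in the other 6 libraries; ERBB2 is among the 10, and the part of this difference in the results below was not tested. Summed markers of basal or myoepithelial cells reached at most 14.0 RPM, of fibroblasts 7.47 RPM and of leukocytes 1.16 RPM in any library, and PTPRC, the pan-leukocyte marker, was at 0 in all 9.

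In the GENCODE v29 annotation of GRCh38 the 10 genes span 656.93 kb of chromosome 17, from base 39404285 to base 40061215. Towards the centromere from ERBB2 (39687914-39730426, plus strand) lie PGAP3 (39671122-39696797, minus strand), PNMT (39667981-39670475, plus), TCAP (39664187-39666555, plus), STARD3 (39637065-39663484, plus), CDK12 (39461511-39564907, plus) and MED1 (39404285-39451286, minus). On the other side lie GRB7 (39737927-39747291, plus), ORMDL3 (39921041-39927601, minus), PSMD3 (39980797-39997960, plus) and MED24 (40019097-40061215, minus). PGAP3 overlaps ERBB2, MED24 overlaps THRA and 2 small RNA genes, CDK12 overlaps RNU6-233P and MED1 overlaps AC005288.1. ERBB2 itself overlaps PGAP3, MIR4728 and, at its far end, MIEN1 on the minus strand. The sources used here do not say whether reads were counted by strand, so where an amplicon lies in such an overlap the reads of the genes cannot be told apart.

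CDK12 and MED1 are printed here because their levels moved most closely together of any pair of these genes and their promoters share a repeated motif. Promoter sequence in RefSeq (GRCh38.p14, from 250 bases before to 50 bases after a start) was at hand for 7 of the 10: MED1, CDK12, STARD3, PGAP3, ORMDL3, PSMD3 and MED24. The 6-base palindrome TCGCGA, which reads the same on both strands, occurred 3 times in the window of CDK12 and 3 times in that of MED1, and not at all in those of the other 5. The motif was searched for after the sequences had been seen, and a link between it and the levels was not tested. Over the 9 libraries r was 0.87 for CDK12 with MED1 and 0.81 for CDK12 with PSMD3, whose window holds no copy. The replicate number took 91.8% of the sum of squares of CDK12 and 86.3% of that of MED1. Of 35116 RefSeq promoter windows of the same length, 3.12% held the motif and 8 windows (0.0228%) held it 3 times or more. The part of each window that lies before the annotated exons is given 5′ to 3′ in the direction of the gene, with TCGCGA in capitals. For CDK12 this is chr17:39461236-39461485 on the plus strand, with 3 copies. For MED1 it is chr17:39451287-39451513 on the minus strand, with 2 copies; its remaining copy falls in the annotated exon and is not shown.
CDK12: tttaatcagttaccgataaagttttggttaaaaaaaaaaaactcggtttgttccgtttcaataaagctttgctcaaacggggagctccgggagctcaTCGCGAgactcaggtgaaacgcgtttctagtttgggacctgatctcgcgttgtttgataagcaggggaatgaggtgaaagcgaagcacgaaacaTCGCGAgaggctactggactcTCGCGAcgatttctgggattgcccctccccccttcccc
MED1: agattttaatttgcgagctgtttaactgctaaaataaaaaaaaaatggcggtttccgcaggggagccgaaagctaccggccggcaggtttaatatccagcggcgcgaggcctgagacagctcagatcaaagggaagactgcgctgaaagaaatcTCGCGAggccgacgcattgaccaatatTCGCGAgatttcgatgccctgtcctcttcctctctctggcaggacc

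Other motifs were spread differently over the windows, searched on both strands. CGGAAG, held by 19.5% of all windows, occurred 3 times at STARD3, 2 times at PGAP3 and 1 time in 1 of the windows of ORMDL3, and also 3 times at ERBB2. CCAAT, held by 34.6%, occurred 2 times at MED24 and once each at MED1, PSMD3 and ERBB2. TATAAA, held by 11.5% of windows, was found at none of the 7 genes. TGANTCA, where N is any base, is looser than TGA(C/G)TCA, the site of FOS and JUN dimers, and was held by 7.71% of windows. It was found once at ERBB2, as TGATTCA, which is not the stricter site, and at none of the 7. The share of windows with the stricter site was not counted. A missing motif says only that these letters are not in this window. PGAP3 and ERBB2 are transcribed away from each other from RefSeq starts at 39688057 and 39688094, with 36 bases between them, and their windows share 136 of 300 bases. The 2 copies of CGGAAG at PGAP3 lie in the shared bases and are the same sites as 2 of the 3 at ERBB2.

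Among the 10 genes, levels did not decline with distance from ERBB2. In control cells ERBB2 averaged 804 RPM, and the 4 most highly read of its 10 neighbours were CDK12, MED1, MED24 and PSMD3, whose nearest edges lay 123 to 289 kb away. CDK12, 123 kb away, averaged 1585 ± 309 RPM (SD, n = 3 here and below), 197% of ERBB2. MED1, 237 kb away, averaged 637 ± 58.5 RPM, and MED24, 289 kb away, 612 ± 20.8 RPM. PSMD3, 250 kb away, averaged 413 ± 66.5 RPM, 51.3% of ERBB2. Those of the 10 within 25 kb were lower: STARD3 had 272 ± 35.9 RPM (33.8% of ERBB2), GRB7 250.2 ± 44.6 RPM (31.1%) and PGAP3 229.8 ± 11.5 RPM (28.6%). MIEN1, which overlaps ERBB2 and is not among the 10, had 872 RPM. ORMDL3, 191 kb away, had 62.3 ± 8.01 RPM. The genes closest in order on the centromeric side after PGAP3 were the lowest of all, with 0.514 ± 0.0667 RPM for PNMT and 5.90 ± 1.07 RPM for TCAP.

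In that order of levels some neighbours could not be separated. The control libraries of MED1 and MED24 overlapped, as did those of STARD3 and GRB7 and those of GRB7 and PGAP3. CDK12 was above ERBB2, and ERBB2 above MED1, in every control library. Over the 10 genes the Spearman correlation of control level with distance in kb was 0.59, and with gene order 0.66, both positive. Over all 18 table genes between MED1 and MED24 other than ERBB2 it was -0.16 and -0.080, and over 58 genes, with the nearest 20 beyond each end, -0.23 and -0.18, so the positive sign belonged to the 10 genes and not to the stretch. These are descriptions over genes that share libraries, with no test.

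As a set the 10 genes were highly read. Control means reached 100 RPM for 7 of the 10 (70%), against 1 of the other 8 genes between MED1 and MED24 (12.5%), 11 of the 40 genes beyond the ends (27.5%) and 9.67% of the whole table. The 10 were picked by symbol with earlier results known, and the 8 are the table genes left over. These shares, and the medians below, therefore describe that choice and not a trait of neighbours of ERBB2. The 1 gene was MIEN1, which overlaps the end of ERBB2 and encodes a membrane-anchored migration protein, at 872 RPM. The median control level was 260.9 RPM for the 10 and 0.255 RPM for the 8 between them, among which ZPBP2, LRRC3C and CSF3 were at 0 in the control libraries. High reads were not limited to the stretch between the outermost genes: RPL19, a ribosomal protein gene, had 20316 RPM, CASC3 1061 RPM, RPL23 1011 RPM and TOP2A 763 RPM, all beyond an end. Among all genes of the table, CDK12 was higher than 99.7%, MED1 than 99.01%, ORMDL3 than 85.1%, TCAP than 57.5% and PNMT than 43.6% in control cells.

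**Figure D1:**
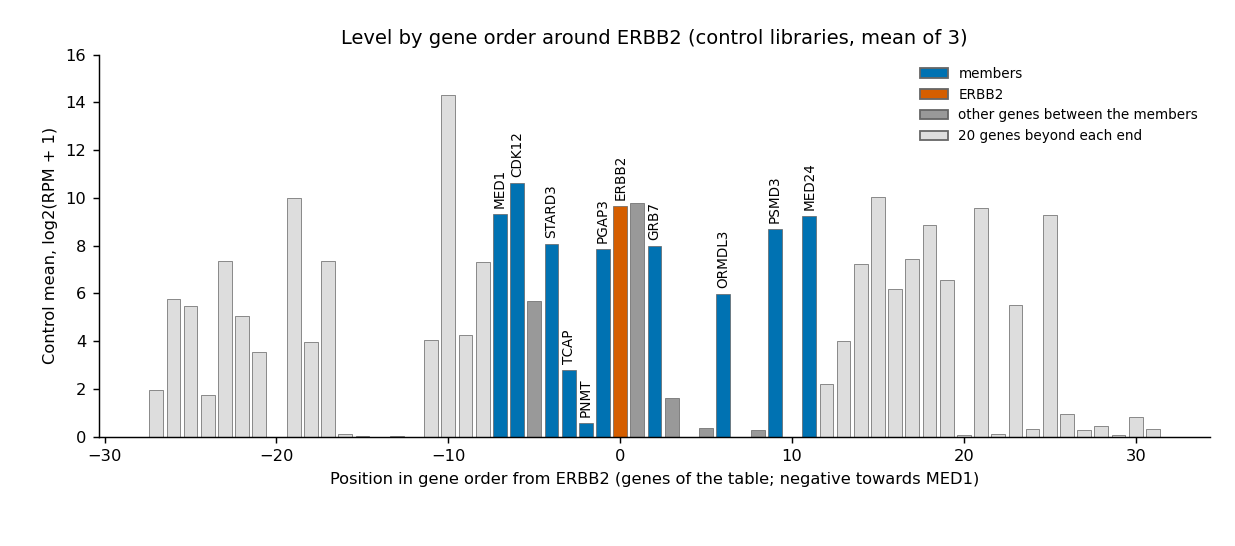
Mean level of 3 control libraries, as log2(RPM + 1), against position in gene order from ERBB2 (0), for the 10 neighbours (blue), ERBB2 (orange), the other 8 genes between them (dark grey) and 20 genes beyond each end (light grey). CDK12 and MED1 on the left and PSMD3 and MED24 on the right stand higher than GRB7, PGAP3 and STARD3 beside ERBB2, and TCAP and PNMT are near the bottom.

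Several of the 10 were the most highly read gene of their own pathway list. Each rank compares amplicons of unknown efficiency, and every library reads the same amplicons. A count of libraries therefore shows only that the order was stable. MED1 and MED24, both subunits of Mediator, the complex that links transcription factors to RNA polymerase II, were above all 31 other Mediator genes measured in 9 of 9 libraries. The next were CCNC, the cyclin of the Mediator kinase, at 133 ± 5.39 RPM, and MED13L at 75.9 ± 12.1 RPM, and the median of the 31 was 33.7 RPM. CDK12, a kinase that phosphorylates the tail of RNA polymerase II during elongation, was above all 13 other genes of its list in 9 of 9 libraries, with its close relative CDK13 next at 384 ± 25.5 RPM. TCAP stood above all 18 other genes of its list in 9 of 9 libraries, but at a low level. TNNT1 came next at 2.42 ± 0.898 RPM. That list holds sarcomere genes and also MSTN and KCNE1, which are not sarcomere genes and were at 0 throughout.

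The others stood lower in their lists. GRB7 was above all 15 other adaptor and signalling genes in 6 of 9 libraries; its control mean was within its own spread of that of PTPN11, at 246 ± 6.74 RPM. PSMD3 was above 17 of 18 other proteasome genes in control, with PSMD8 higher at 497 ± 57.5 RPM. PGAP3 was above 25 of 27 genes of glycosylphosphatidylinositol (GPI) anchor synthesis, with PIGT at 684 ± 97.9 RPM and PIGS at 292 ± 13.7 RPM higher. STARD3 was above 11 of 14 and ORMDL3 above 9 of 17 genes of their lists. PNMT was above 9 of 12, but under 1 RPM.

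**Figure D2:**
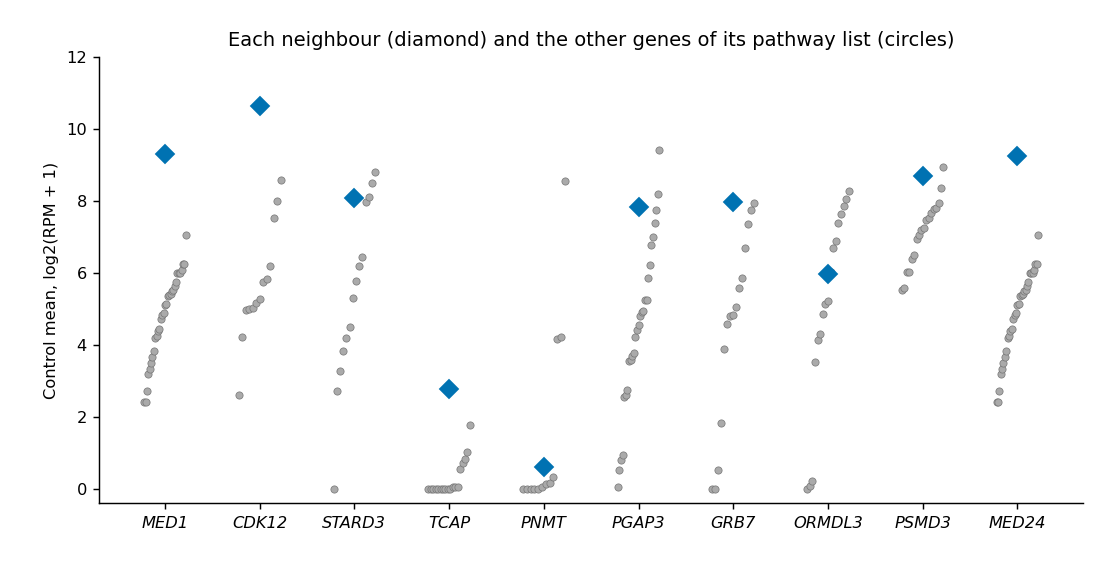
Control mean, as log2(RPM + 1), of each of the 10 genes (blue diamond) and of the other genes of its pathway list (grey circles, sorted from low to high). MED1, MED24 and CDK12 stand clear above every other gene of their lists, and ORMDL3 lies among the genes of its own.

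For the comparisons between siRNA groups, 9 of the 10 genes passed the filter, a 9-library mean of 1 RPM or more; PNMT did not. None of the 9 passed an adjusted p of 0.05 in any of the 3 contrasts. Tests were two-sided, made with limma on log2(RPM + 1) across 11158 genes and adjusted by Benjamini-Hochberg, and differences below are on that log2 scale. For siRNA 1 against control, 0 of 9 were called, where 0.851% of all genes tested were. For siRNA 2 against control 0 of 9 were called, where 0.681% were, and for siRNA 2 against siRNA 1 0 of 9, where 3.05% were. edgeR's quasi-likelihood test and DESeq2 on recovered reads also called 0 of 9 in each contrast. In the limma fit without a block, an unadjusted p under 0.05 was reached by 1 of 9 for siRNA 1 against control (6.04% of all genes), 0 of 9 for siRNA 2 against control (9.42%) and 1 of 9 for siRNA 2 against siRNA 1 (15.1%), both times TCAP. With the replicate number as a block GRB7 also reached it with siRNA 2, as given below.

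The differences were small. In these bulk libraries fewer cells with a transcript and less of it per cell cannot be told apart. Log2 differences of the 9 ran from -0.43 to 0.14 for siRNA 1 against control, with a median of -0.0081, and from -0.19 to 0.15 for siRNA 2 against control, with a median of -0.068. For siRNA 2 against siRNA 1 they ran from -0.21 to 0.46, with a median of -0.048. The medians over all genes tested were 0.014, -0.022 and -0.039. Contrasts that share a group are not independent of each other. ERBB2 itself differed by 0.065 with siRNA 1 (95% confidence interval -0.21 to 0.34) and by -0.28 with siRNA 2 (-0.56 to -0.0011), with limma adjusted p of 1.000 and 0.527. Between the siRNAs ERBB2 differed by -0.35 (-0.63 to -0.066), with an adjusted p of 0.203, or 0.0472 with the replicate number as a block, which called 9.33% of all genes. Without siRNA 2 replicate 3, the library lowest in ERBB2, the difference was -0.149 from control (limma adjusted p = 0.832) and -0.21 between the siRNAs (adjusted p = 0.509).

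**Figure D3:**
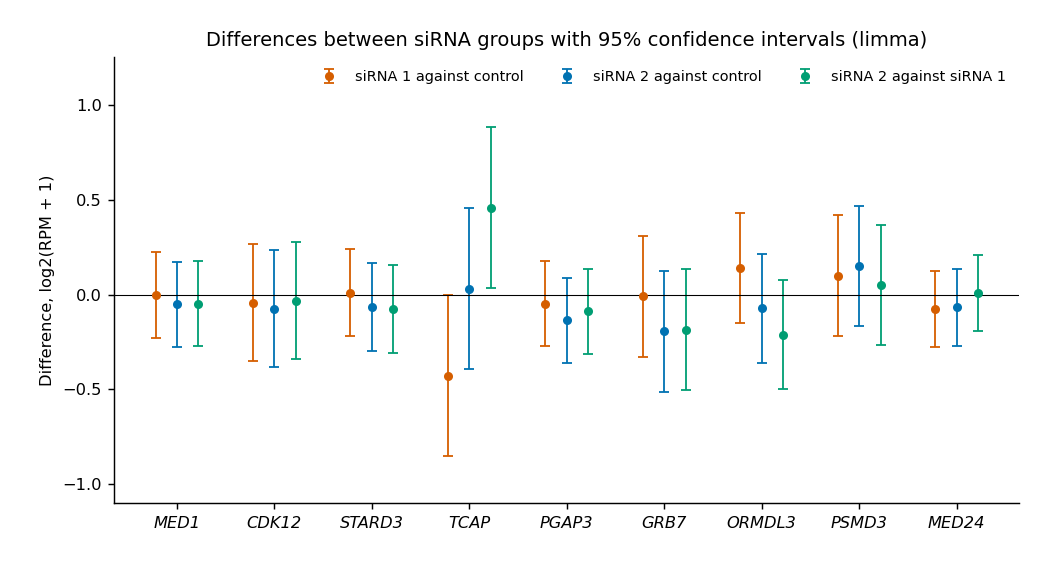
Difference between siRNA groups for the 9 tested genes in genomic order, on the log2(RPM + 1) scale, with limma's 95% confidence intervals (3 libraries a group, fit without a replicate block). All intervals include 0 except those of TCAP for siRNA 1 against control and for siRNA 2 against siRNA 1, and no difference passed the adjusted threshold.

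GRB7 encodes an adaptor that binds phosphorylated HER2 and other receptors through its SH2 domain, and it lies 7.501 kb beyond ERBB2. Control replicates 1, 2 and 3 held 259.5, 202 and 289 RPM, siRNA 1 replicates 279, 210.1 and 254 RPM, and siRNA 2 replicates 252, 185 and 217 RPM. The groups overlapped, and replicate 2 was the lowest of each. GRB7 differed by -0.0081 with siRNA 1 (95% confidence interval -0.33 to 0.31) and by -0.19 with siRNA 2 (-0.51 to 0.12). These intervals leave the replicate number out, and at them a change of the latter size could not be detected. With the replicate number as a block, the SE fell from 0.149 to 0.0844. The unadjusted limma p was then 0.0353 for siRNA 2 against control (adjusted p = 0.261) and 0.0425 against siRNA 1 (adjusted p = 0.192). The share of all genes at such a p with the block was not counted. Of the 12 tested genes among adaptors and partners of this receptor family, 1 passed in 1 contrast. GAB1, a docking protein, averaged 39.1 ± 2.37 RPM with siRNA 2 against 58.5 ± 4.37 RPM with siRNA 1, lower by a log2 difference of -0.57 (limma adjusted p = 0.0158, where 2.46% of genes were called lower). GAB1 lost the call without any of 3 libraries (siRNA 1 replicate 1 or 3, or siRNA 2 replicate 1), with limma adjusted p of 0.0553 to 0.0746. Relatives of GRB7 were low, with GRB10 at 27.4 RPM and GRB14 at 0.448 RPM in control.

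STARD3 encodes a late endosomal protein that tethers this organelle to the endoplasmic reticulum and carries cholesterol between them. Control replicates held 248, 313 and 254 RPM, siRNA 1 replicates 274, 293 and 250.2 RPM, and siRNA 2 replicates 256, 272 and 246 RPM. Replicate 2 was the highest of each group and the 3 ranges overlapped. The difference was 0.010 with siRNA 1 (95% confidence interval -0.22 to 0.24) and -0.066 with siRNA 2 (-0.30 to 0.16). Of 13 tested genes of late endosomal and contact-site lipid transfer, none passed against control and 2 passed between the siRNAs, 1 in each direction, beside 0.592% of genes called higher and 2.46% lower. STARD3NL, a relative that shares the tethering domain, was higher with siRNA 2 (85.5 ± 8.85 against 62.5 ± 3.70 RPM, log2 difference 0.44, limma adjusted p = 0.0498), and STARD7, which carries phosphatidylcholine, was lower (215 ± 35.2 against 319 ± 42.2 RPM, -0.57, adjusted p = 0.0274). STARD3NL lost the call without any 1 of the 9 libraries (limma adjusted p 0.0524 to 0.157), and STARD7 without any of 4, namely replicates 1 and 2 of siRNA 1 and replicates 2 and 3 of siRNA 2 (0.0705 to 0.115).

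PGAP3 encodes an enzyme that remodels the lipid of GPI anchors in the Golgi. Control replicates held 217, 233 and 239.6 RPM, siRNA 1 replicates 211, 235 and 220.2 RPM, and siRNA 2 replicates 182, 230.15 and 218 RPM. Replicate 1 was the lowest of each group, and the groups overlapped. PGAP3 differed by -0.048 with siRNA 1 (95% confidence interval -0.27 to 0.17) and by -0.14 with siRNA 2 (-0.36 to 0.087). Of 24 tested genes of GPI anchor synthesis and remodelling, 1 passed: PIGM, the first mannosyltransferase of the pathway. PIGM averaged 17.6 ± 2.91 RPM in control, 17.9 ± 1.87 RPM with siRNA 1 and 8.39 ± 2.24 RPM with siRNA 2. It was lower with siRNA 2 by a log2 difference of -1.003 against control (limma adjusted p = 0.0266, where 0.645% of genes were called lower) and by -1.03 against siRNA 1 (adjusted p = 0.00838). Against control PIGM lost the call without any of 5 libraries, all but replicate 2 of the siRNA 2 group among the 6 compared (limma adjusted p 0.0652 to 0.158); against siRNA 1 the call held with each library left out in turn.

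ORMDL3 encodes a protein of the endoplasmic reticulum that restrains serine palmitoyltransferase, the first enzyme of sphingolipid synthesis. Control replicates held 54.6, 70.6 and 61.8 RPM, siRNA 1 replicates 72.8, 76.5 and 57.4 RPM, and siRNA 2 replicates 53.0, 61.6 and 62.6 RPM. The siRNA 1 group held both the highest values and 1 of the lower ones, and the groups overlapped. The difference was 0.14 with siRNA 1 (95% confidence interval -0.15 to 0.43), -0.072 with siRNA 2 (-0.36 to 0.22) and -0.21 between them (-0.50 to 0.076, limma adjusted p = 0.505). ORMDL3 was read more than its relatives ORMDL1, at 18.6 RPM, and ORMDL2, at 28.1 RPM, in control. Of 14 tested genes of sphingolipid synthesis, 1 passed in 1 contrast: CERS2, a ceramide synthase for very long acyl chains, was lower with siRNA 2 than with siRNA 1 (167 ± 4.83 against 220.4 ± 7.34 RPM, log2 difference -0.40, limma adjusted p = 0.0263), beside 2.46% of all genes called lower there. CERS2 lost the call without any of 5 libraries, namely each siRNA 1 replicate and replicates 1 and 2 of siRNA 2 (limma adjusted p 0.0624 to 0.104).

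CDK12 had the highest level of the 10 in every library. Control replicates held 1931, 1487 and 1337 RPM, siRNA 1 replicates 1795, 1466 and 1335 RPM, and siRNA 2 replicates 1677, 1419 and 1381 RPM. Replicate 1 was the highest and replicate 3 the lowest of each group, and the groups overlapped, with SDs of 309, 237 and 161 RPM. CDK12 differed by -0.042 with siRNA 1 (95% confidence interval -0.35 to 0.26) and by -0.074 with siRNA 2 (-0.38 to 0.23). CCNK, which encodes the cyclin partner of CDK12, averaged 71.9 RPM in control, and CDK9, another elongation kinase, 31.9 RPM. None of 13 tested genes of transcriptional kinases and their partners passed in any contrast by limma, and none had an unadjusted p under 0.05. Of 10 tested DNA repair genes described as dependent on CDK12, 0 passed in limma, with 0, 0 and 1 at an unadjusted p under 0.05 in the 3 contrasts.

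MED1 is the Mediator subunit that nuclear receptors such as the oestrogen receptor bind. Control replicates held 691, 645 and 575 RPM, siRNA 1 replicates 663, 657 and 585 RPM, and siRNA 2 replicates 683, 597 and 566 RPM. The same replicate numbers were highest and lowest in each group as for CDK12. MED1 differed by -0.0027 with siRNA 1 (95% confidence interval -0.23 to 0.22) and by -0.051 with siRNA 2 (-0.27 to 0.17).

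MED24, a Mediator subunit of the tail module at the far end of the stretch, varied least of the 10, with a coefficient of variation of 5.99% over the 9 libraries. Control replicates held 591, 613 and 632 RPM, siRNA 1 replicates 553, 573 and 616 RPM, and siRNA 2 replicates 635, 588 and 531 RPM. No replicate number was highest throughout. The difference was -0.076 with siRNA 1 (95% confidence interval -0.28 to 0.12) and -0.068 with siRNA 2 (-0.27 to 0.13). Of 31 other Mediator genes, all tested, 0 passed against control in limma and 1 passed, as lower, between the siRNAs, a share near the 2.46% of all genes called lower there. MED15, another tail subunit, averaged 23.7 ± 5.29 RPM with siRNA 2 and 39.1 ± 1.73 RPM with siRNA 1 (log2 difference -0.72, limma adjusted p = 0.0156). MED15 lost the call without any of 4 libraries, replicates 1 and 2 of siRNA 1 and replicates 2 and 3 of siRNA 2 (limma adjusted p 0.0517 to 0.0611).

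PSMD3 encodes a scaffold subunit of the lid of the 26S proteasome, which degrades ubiquitinated proteins. Control replicates held 488, 389 and 362 RPM, siRNA 1 replicates 549.8, 414 and 370.5 RPM, and siRNA 2 replicates 500.6, 401 and 468 RPM. Replicate 1 was the highest of each group, and the groups overlapped. PSMD3 differed by 0.099 with siRNA 1 (95% confidence interval -0.22 to 0.42) and by 0.15 with siRNA 2 (-0.17 to 0.47). Of 18 other proteasome genes, all tested, 0 passed against control in limma and 1 between the siRNAs: PSMC6, an ATPase of the base, was higher with siRNA 2 (155 ± 17.6 against 116 ± 2.89 RPM, log2 difference 0.41, limma adjusted p = 0.0468), beside 0.592% of all genes called higher there. PSMC6 lost the call when any library but replicate 1 of siRNA 2 was left out (limma adjusted p 0.0584 to 0.147).

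TCAP encodes telethonin, a muscle protein that caps titin at the Z-disc, and it was read at 35 to 74 reads per library. Control replicates held 4.87, 7.01 and 5.82 RPM, siRNA 1 replicates 3.38, 5.23 and 3.83 RPM, and siRNA 2 replicates 4.99, 6.59 and 6.49 RPM. Replicate 1 was the lowest and replicate 2 the highest of each group; 2 of the 3 siRNA 1 libraries lay below every other library, and the groups overlapped through siRNA 1 replicate 2. TCAP differed by -0.43 with siRNA 1 (95% confidence interval -0.85 to -0.0032, limma adjusted p = 0.816) and by 0.029 with siRNA 2 (-0.39 to 0.45). Between the siRNAs the difference was 0.46 (0.033 to 0.88, limma adjusted p = 0.290). Other muscle genes gave little: the summed level of 5 muscle markers was 0.477 to 1.74 RPM per library, with MYH7 and CKM at 0 in all 9. Of the 18 other genes of the TCAP list 3 could be tested and 0 passed in limma, with none at an unadjusted p under 0.05.

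PNMT encodes the adrenal enzyme that makes adrenaline from noradrenaline, and it was near the floor of detection, with 3 to 12 reads per library. Control replicates held 0.477, 0.474 and 0.591 RPM, siRNA 1 replicates 0.676, 0.290 and 0.841 RPM, and siRNA 2 replicates 0.599, 1.16 and 1.15 RPM. The siRNA 2 values were all above the control values, the closest being 0.599 against 0.591 RPM. PNMT was below the filter and was not tested; among tested genes, 4.99% had siRNA 2 values all above control. DBH, which makes the substrate of PNMT, was at 0 in all 9 libraries, while TH, the first enzyme of the pathway, averaged 17.1 RPM in control. Of 12 genes of catecholamine synthesis, storage and breakdown 3 could be tested and 0 passed in limma, with none at an unadjusted p under 0.05.

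**Figure D4:**
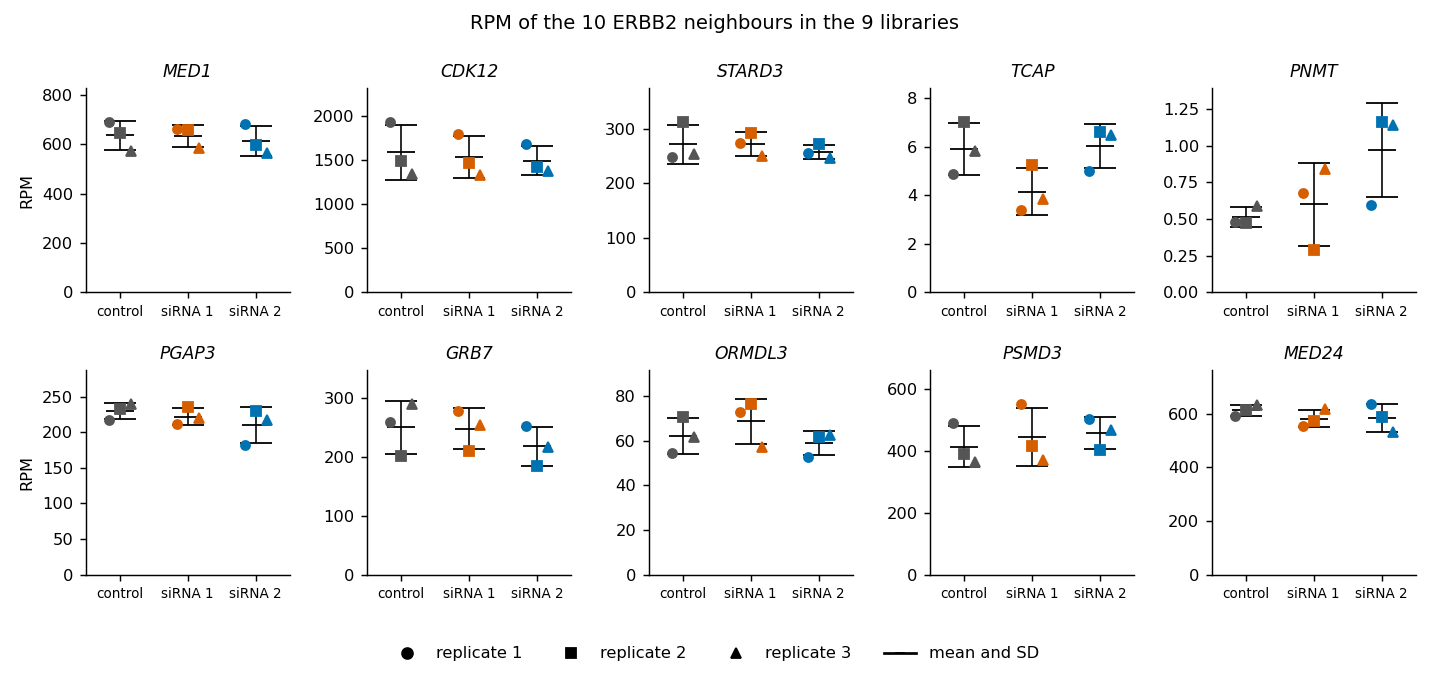
RPM of each of the 10 genes in the 9 libraries, by siRNA group, with the replicate number as the symbol and the mean and SD of 3 libraries as bars. Groups overlap for all genes but PNMT between siRNA 2 and control, and for CDK12 and MED1 the order of the replicate numbers is the same in each group.

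Genes around the 10 were also mostly without a call. Of the other 8 genes between MED1 and MED24, 3 could be tested and 0 passed in limma in any contrast, with none at an unadjusted p under 0.05. Of the 40 genes beyond the ends, 26 could be tested and 1 passed. FBXL20, an F-box gene next to MED1, averaged 115 ± 8.07 RPM with siRNA 1 against 159 ± 4.88 RPM for control (log2 difference -0.46, limma adjusted p = 0.0389, where 0.215% of genes were called lower), and 145 ± 9.12 RPM with siRNA 2 (-0.13, adjusted p = 0.764). FBXL20 lost the call in edgeR's quasi-likelihood test (adjusted p = 0.0564) and, in limma, without any library but replicates 1 and 3 of siRNA 2 (adjusted p 0.0581 to 0.188). With no filter on low values, none of the calls given for GAB1, STARD3NL, STARD7, PIGM, CERS2, MED15, PSMC6 and FBXL20 held in limma (adjusted p 0.0646 to 0.243). CERS2 also lost its call with median-of-ratios scaling (limma adjusted p = 0.0525) and in edgeR (0.0536), PSMC6 with TMM scaling (limma adjusted p = 0.0507) and in edgeR (0.0519), and STARD3NL with a pseudocount of 5 (limma adjusted p = 0.0524).

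The libraries of a replicate number stood together at several of these genes. The sample titles give each library a number from 1 to 3, and the labels do not say what libraries of the same number share. Over the 9 tested genes a median of 71.0% of the sum of squares on the log2 scale went with the replicate number and 17.3% with the siRNA group, against 33.7% and 25.2% over all genes tested. Control means reached 100 RPM for 7 of these genes, while all genes tested go down to a mean of 1 RPM. Genes of like level were not compared, so these shares do not describe a trait of neighbours of ERBB2. The share of the number was larger than that of the group for 7 of the 9 (77.8%), against 56.4% of all genes; the exceptions were TCAP (39.96% and 55.7%) and MED24 (0.0144% and 17.3%). It was 91.8% for CDK12, 86.3% for MED1 and 20.3% for ERBB2. CDK12, MED1 and TCAP had the same order of the 3 numbers in every group, 3 of 9, beside 10.5% of all genes.

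A test of the replicate number, limma's F test of a block term beside the siRNA groups, was added after these values had been seen. It called 3 of the 9, where 9.77% of all genes tested were called, again with no match for level. CDK12 averaged 1801 RPM over the libraries numbered 1, 1457 RPM over those numbered 2 and 1351 RPM over those numbered 3 (limma adjusted p = 0.00906), a log2 difference of -0.30 for number 2 and -0.41 for number 3 against number 1, with an SE of 0.078. GRB7 averaged 263, 199 and 254 RPM (adjusted p = 0.0124), with the low value in number 2. PSMD3 averaged 513, 401 and 400.1 RPM (adjusted p = 0.0213), with the high value in number 1. MED1 averaged 679, 633 and 575 RPM and did not pass (adjusted p = 0.09998), nor did STARD3 at 260, 293 and 249.9 RPM (adjusted p = 0.127). MED24, at 593, 591 and 593 RPM, had an adjusted p of 1.000. With no filter on low values none of the 3 calls held, with limma adjusted p of 0.137, 0.190 and 0.283. CDK12 lost the call without control replicate 1 (limma adjusted p = 0.0628), GRB7 without control replicate 2 (0.0746), and PSMD3 without any of 5 libraries (0.0516 to 0.122), namely replicates 1 and 3 of control and of siRNA 1, and replicate 2 of siRNA 2. What in the libraries goes with the number was not tested.

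**Figure D5:**
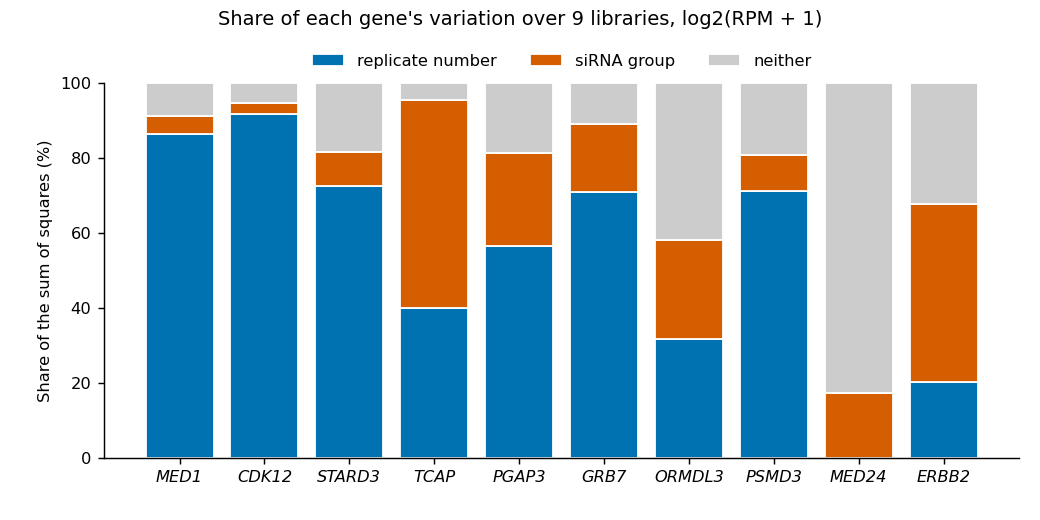
Share of each gene's sum of squares over the 9 libraries, log2(RPM + 1), that goes with the replicate number (blue), the siRNA group (orange) or neither (grey), in genomic order with ERBB2 at the right. The number takes 91.8% for CDK12 and 86.3% for MED1, and nearly nothing for MED24.

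The 9 genes showed no correlation with ERBB2 from library to library that passed the test. For ERBB2 the control replicates held 710.2, 871 and 832 RPM, the siRNA 1 replicates 723, 919 and 887 RPM, and the siRNA 2 replicates 712, 734 and 549 RPM. Pearson correlations of log2(RPM + 1) with ERBB2 over the 9 libraries ran from -0.61 for PSMD3 to 0.58 for MED24, and none of the 9 passed an exact permutation test, two-sided and adjusted over the 9. That test takes the 9 libraries as exchangeable and so leaves out the siRNA groups and the replicate numbers that pair them. For PSMD3 r was -0.61 (exact permutation p = 0.0758, adjusted p = 0.422) and Spearman's rho -0.62 (p = 0.0857, adjusted p = 0.290). For MED24 r was 0.58 (exact permutation p = 0.102, adjusted p = 0.422) and rho 0.23 (p = 0.552, adjusted p = 0.789). STARD3 had an r of 0.54 (exact permutation p = 0.141, adjusted p = 0.422) and a rho of 0.60 (p = 0.0968, adjusted p = 0.290). PGAP3, whose promoter window overlaps that of ERBB2, had an r of 0.42 (exact permutation p = 0.245, adjusted p = 0.552) and a rho of 0.68 (p = 0.0503, adjusted p = 0.290). GRB7, next to ERBB2 but for MIEN1, had an r of 0.019 (exact permutation p = 0.962, adjusted p = 0.962) and a rho of -0.20 (p = 0.613, adjusted p = 0.789).

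Of the other 4, CDK12 had an r of -0.23 and a rho of -0.40 (exact permutation p = 0.554 and 0.291, adjusted p = 0.823 and 0.524), and ORMDL3 an r of 0.32 and a rho of 0.40 (exact permutation p = 0.398 and 0.291, adjusted p = 0.717 and 0.524). MED1 had 0.14 and -0.15 (exact permutation p = 0.732 and 0.708, adjusted p = 0.823 and 0.797), and TCAP -0.15 and 0.067 (exact permutation p = 0.701 and 0.880, adjusted p = 0.823 and 0.880). Without the 2 libraries whose ERBB2 lay farthest from its median, siRNA 1 replicate 2 and siRNA 2 replicate 3, r was -0.82 for PSMD3, -0.76 for CDK12, -0.65 for MED1, 0.56 for PGAP3, 0.44 for MED24, 0.27 for STARD3, 0.25 for ORMDL3, 0.18 for TCAP and -0.066 for GRB7. With 1 library left out, r ran from 0.14 to 0.76 for MED24, from -0.72 to -0.11 for CDK12, from 0.10 to 0.48 for ORMDL3, from -0.22 to 0.17 for GRB7, from -0.44 to 0.30 for MED1 and from -0.34 to 0.18 for TCAP. The ranges were narrower for PSMD3 (-0.74 to -0.55), STARD3 (0.43 to 0.71) and PGAP3 (0.34 to 0.61). The lowest values for MED24 and CDK12 came without siRNA 2 replicate 3, and the lowest for ORMDL3 without siRNA 1 replicate 2. A replicate number holds only 3 libraries, too few for a correlation within it. With group and replicate means both taken out, r was 0.99 for MED24, -0.93 for PSMD3, -0.85 for CDK12, -0.64 for ORMDL3, -0.60 for PGAP3, 0.59 for GRB7, -0.54 for TCAP, 0.28 for MED1 and -0.071 for STARD3. These values rest on few degrees of freedom and were not tested, and the permutation test above does not cover them.

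The level of each gene relative to ERBB2 varied between libraries. The ratio of CDK12 to ERBB2 ran from 1.51 to 2.72 over the 9 libraries, that of MED1 from 0.659 to 1.03, that of PSMD3 from 0.418 to 0.853 and that of GRB7 from 0.229 to 0.395.

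Among themselves the 9 genes made 36 pairs, of which 18 had a positive and 18 a negative correlation over the 9 libraries. The highest were CDK12 with MED1, at 0.87, which are adjacent in the table's gene order, PSMD3 with CDK12, at 0.81, and STARD3 with ORMDL3, at 0.76. The lowest were PGAP3 with PSMD3, at -0.69, and GRB7 with TCAP, at -0.67. The points share libraries and replicate numbers, and no test is given. The mean profile of the 9, each scaled to the same mean and SD, correlated with the single genes at -0.030 (TCAP) to 0.76 (MED1). Each of the 9 is itself part of that profile, which raises its value, while genes outside the region are not. Outside the region the genes most like that profile were STARD13 (r = 0.96, 15.9 RPM in control), EMC6 (0.94, 4.49 RPM) and MAGEF1 (0.94, 62.4 RPM) over 9 libraries, picked as the 3 highest of all genes tested.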

How the data were processed

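The deposited table holds RPM for 20812 genes in 9 libraries: the authors scaled the reads of each gene's amplicon to the reads of its library. Input was 100 ng of total RNA and the kit an Ion AmpliSeq Transcriptome one, per the labels' protocols. The submitters' processing notes name the build hg19; an aligner and a counter are not given in the sources used here. No coordinates come with it: positions are those of the gene symbols in GENCODE v29 (GRCh38), and promoters those of RefSeq (GRCh38.p14). RPM steps gave whole reads for 100% of values within 0.1 read.

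Deposited values were tested as log2(RPM + 1) by limma 3.58.1 (R 4.3.3, trended prior) on the 11158 genes whose mean reached 1 RPM. The 3 groups, taken from the sample titles, shared 1 estimate of the spread; p-values were adjusted by Benjamini-Hochberg, with a threshold of 0.05. Correlations used exact permutation (SciPy 1.17.1). Pairs of libraries within a group differed beyond counting noise (chi-square per degree of freedom 8.90 to 23.9), so none was treated as a copy. The fit was tested on simulated libraries, drawn without an effect of the replicate number. It recovered 79% of 200 genes changed by a log2 of 1, with 14 false calls. In the comparison with 0 genes changed there were 2 false calls.

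The genes, their pathway lists and the tests were chosen with earlier results of these data known. Of each list, genes past the threshold are named, up to 4; of the region also the 5 with the highest control means, which are RPL19, CASC3, RPL23, MIEN1 and TOP2A; other list genes are named by rank or role, after their values were seen. The replicate numbers in the titles pair the samples: deviations from group means had correlations of 0.252 to 0.417 in the 9 pairs sharing a number and of -0.340 to -0.0275 in the 18 others. Alternatives were pseudocounts of 0.1 and 5, a filter at 5 RPM or none, TMM and median-of-ratios scaling, edgeR 4.0.16 and DESeq2 1.42.0 on recovered reads, the replicate block, and leaving out each library.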

Additional observations from a re-analysis of the deposited data

How the results depend on the processing

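No alternative called any of the 9 genes in a contrast between siRNA groups: over 162 values per contrast, the lowest adjusted p were 0.282 (siRNA 1 against control), 0.261 (siRNA 2 against control) and 0.0870 (siRNA 2 against siRNA 1), each in the fit with the replicate block, which changed no call of the 9. Counts over the whole table moved. For siRNA 1 against control 95 genes became 3 with no filter, 206 with the replicate block, 161 with DESeq2 and 46 to 137 with a library left out. For siRNA 2 against control 76 became 12, 380, 159 and 18 to 70, and for siRNA 2 against siRNA 1 340 became 12, 1041, 524 and 153 to 306. Having no filter adds 9654 genes, 4489 of them at 0 in every library. In the added F test of replicate numbers the 1090 genes became 55 with no filter and 609 to 815 with a library left out, and the 3 calls among the 9 genes became 0 and 1 to 3. Apart from these counts the cause was not tested.

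Some signs turned. The log2 difference of STARD3 with siRNA 1 became -0.00497 with TMM, -0.00639 with median-of-ratios scaling, -0.00383 with edgeR and -0.00776 with DESeq2; that of CDK12 between the siRNAs became 0.00471, 0.0153, 0.00099 and 0.00701. Correlations with ERBB2 turned for GRB7 (-0.0376 with TMM, -0.0651 with median-of-ratios, -0.066 without the 2 farthest libraries, -0.41 with group means out), MED1 (-0.16, -0.21, -0.65 and -0.00678), TCAP (0.18 and 0.42 in the last 2 settings) and, with the replicate block taken out as well, STARD3 (-0.071), PGAP3 (-0.60) and ORMDL3 (-0.64).

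With 1 library left out, the correlations with ERBB2 that turned ran from -0.22 to 0.17 for GRB7, -0.44 to 0.30 for MED1 and -0.34 to 0.18 for TCAP. Log2 differences that turned ran, for siRNA 1 against control, from -0.16 to 0.11 (CDK12), -0.022 to 0.17 (ERBB2), -0.15 to 0.11 (GRB7), -0.074 to 0.058 (MED1), -0.064 to 0.23 (PSMD3) and -0.051 to 0.12 (STARD3). For siRNA 2 against control they ran from -0.19 to 0.077 (CDK12), -0.13 to 0.010 (MED1), -0.16 to 0.020 (ORMDL3), -0.13 to 0.039 (STARD3) and -0.082 to 0.14 (TCAP). Between the siRNAs they ran from -0.13 to 0.088 (CDK12), -0.13 to 0.010 (MED1), -0.053 to 0.075 (MED24), -0.16 to 0.012 (PGAP3) and -0.070 to 0.21 (PSMD3). Depth limits PNMT, at 3 to 12 reads, and TCAP, at 35 to 74.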
